A study of Mus musculus with 2 samples.

Results

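Sox7, Sox17 and Sox18 are the 3 members of the SoxF family of transcription factors, out of 32285 genes in the count tables of mouse embryonic cerebellum analysed here. They were chosen from their own counts: all 3 were seen in vessel cells of both genotypes, and Sox17 was seen in neural cells of the mutant library. Those levels are therefore given as a description. SoxF proteins bind DNA through a high-mobility-group (HMG) domain. In blood vessels they act together in endothelial specification, arterial identity and vessel growth, and each can partly stand in for the others. Sox17 is also a classical factor of the definitive endoderm, has been described in the oligodendrocyte lineage, and in several tissues lowers signalling through beta-catenin, the effector of the canonical Wnt pathway. In the GENCODE M21 annotation of GRCm38 (mm10), Sox7 (ENSMUSG00000063060) lies on chromosome 14 at 63943673 to 63950732 on the plus strand. Sox17 (ENSMUSG00000025902) lies on chromosome 1 at 4490931 to 4497354 on the minus strand, and Sox18 (ENSMUSG00000046470) on chromosome 2 at 181669836 to 181671640 on the minus strand.

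Mutant embryos carried Blbp-cre together with Ctnnb1(ex3)fl/wt and Smarca4fl/fl, control embryos were cre-negative, and cerebella of both were taken at E16.5. Blbp-cre acts in radial glia and other neural progenitors. Its action removes the third exon of 1 Ctnnb1 allele, which stabilises beta-catenin, and deletes Smarca4, which encodes the motor subunit of BAF (SWI/SNF) chromatin remodellers, so that the effects of the pair of alleles cannot be told apart here. Each library was made from 3 pooled samples of its genotype, and the labels do not say how many embryos or litters these held.

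Transcript 3' ends were counted in single cells with unique molecular identifiers (UMIs), each of which marks 1 captured molecule. The mutant library held 21596 barcodes and 220565819 UMIs, and the control library 21457 barcodes and 225512196 UMIs. After filtering, 15586 mutant and 15793 control cells remained, with a median of 9641 UMIs in mutant and 9963 UMIs in control cells. The libraries had 123 barcodes in common, 61 of them among kept cells. With 1 library per genotype there was no spread between animals and no test of genotype. The intervals given are 95% intervals that cover counting error only. Levels are counts per 1e6 UMIs (CPM) of the cells named, and compare 1 gene between groups of cells, not genes with each other. Smarca4 stood at 49.2 CPM in mutant cells and at 67.9 CPM in control cells and Ctnnb1 at 172 CPM in mutant cells and at 118 CPM in control cells, but a 3' tag outside the floxed exons does not check either deletion. Clustering without the SoxF genes gave 32 clusters, 24 of them neural, and in 8 neural clusters the mutant share of cells was at least 5 times the control share.

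In whole libraries Sox17 differed most of the SoxF genes. The mutant library held 2304 Sox17 UMIs (13.7 CPM) and the control library 309 (1.79 CPM), a ratio of 7.66 (6.80 to 8.65). Sox7 had 284 mutant UMIs (1.69 CPM) and 225 control UMIs (1.30 CPM), a ratio of 1.30 (1.08 to 1.55), but with the cell richest in each gene left out its log2 ratio was 0.12 (-0.15 to 0.40). Sox18 had 541 mutant UMIs (3.22 CPM) and 503 control UMIs (2.91 CPM), a ratio of 1.10 (0.977 to 1.25). Of 21147 genes with enough UMIs, 8.26% had a mutant level 2-fold or more above the control level and 4.65% one 2-fold or more below it. Among the SoxF genes 1 of 3 reached 2-fold, and since the genes were chosen with these values known, nothing is read from that count.

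The endothelial-like cluster gave the vascular baseline, and there the levels of all 3 genes were nearly equal between the libraries. It held 208 mutant and 186 control cells and was named from vessel markers. The tight-junction gene Cldn5 stood at 2251 CPM in mutant cells and at 2416 CPM in control cells, the adhesion gene Pecam1 at 389 CPM in mutant cells and 337 CPM in control cells, and Cdh5, which encodes VE-cadherin, at 453 CPM in mutant cells and 373 CPM in control cells. Of the markers of neighbouring cell types, the pericyte gene Rgs5 had 15 UMIs in mutant and 7 UMIs in control cells of the cluster, Pdgfrb 5 UMIs in mutant and 4 UMIs in control cells, and Kcnj8 0 UMIs in mutant and 1 UMI in control cells. The fibroblast gene Col1a1 had 9 UMIs and the microglial gene C1qa 1 UMI in each library. Rgs5 stood at 6.97 CPM in mutant cells against 4.39 CPM in control cells, and the part of such neighbouring cells in the SoxF levels was not tested.

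Sox7, a SoxF gene of early endothelium, had 264 UMIs (123 CPM, 108 to 138) in mutant and 190 UMIs (119 CPM, 103 to 137) in control endothelial-like cells. The ratio was 1.03 (0.852 to 1.25). Sox17, which marks arterial endothelium, had 416 UMIs (193 CPM, 175 to 213) in mutant and 294 UMIs (184 CPM, 164 to 207) in control cells, a ratio of 1.05 (0.901 to 1.22). Sox18, known for its role in lymphatic and blood vessel development, had 346 UMIs (161 CPM, 144 to 179) in mutant and 260 UMIs (163 CPM, 144 to 184) in control cells, a ratio of 0.987 (0.838 to 1.16). All 3 intervals included 1, and none reached 1.5-fold in either direction. Over all cells with UMIs of at least 3 endothelial markers, which took in cells of other clusters, the intervals lay above 1, with log2 ratios of 0.37 for Sox7, 0.41 for Sox17 and 0.33 for Sox18. Within the endothelial-like cluster 3.11% of 10193 genes had a mutant level 2-fold or more above the control level and 1.99% one 2-fold or more below it.

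Each SoxF gene was detected in more than 50% of endothelial-like cells. Sox7 was seen in 51.0% of mutant and 51.6% of control cells, Sox17 in 60.6% of mutant and 59.1% of control cells, and Sox18 in 60.6% of mutant and 56.5% of control cells. A single mutant cell of 131568 UMIs carried 54 of the 264 Sox7 UMIs, while the next highest carried 8. With the highest cell of each library left out, Sox7 stood at 104 CPM in mutant cells and at 115 CPM in control cells, so the direction of its small difference rested on that cell.

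**Figure D1:**
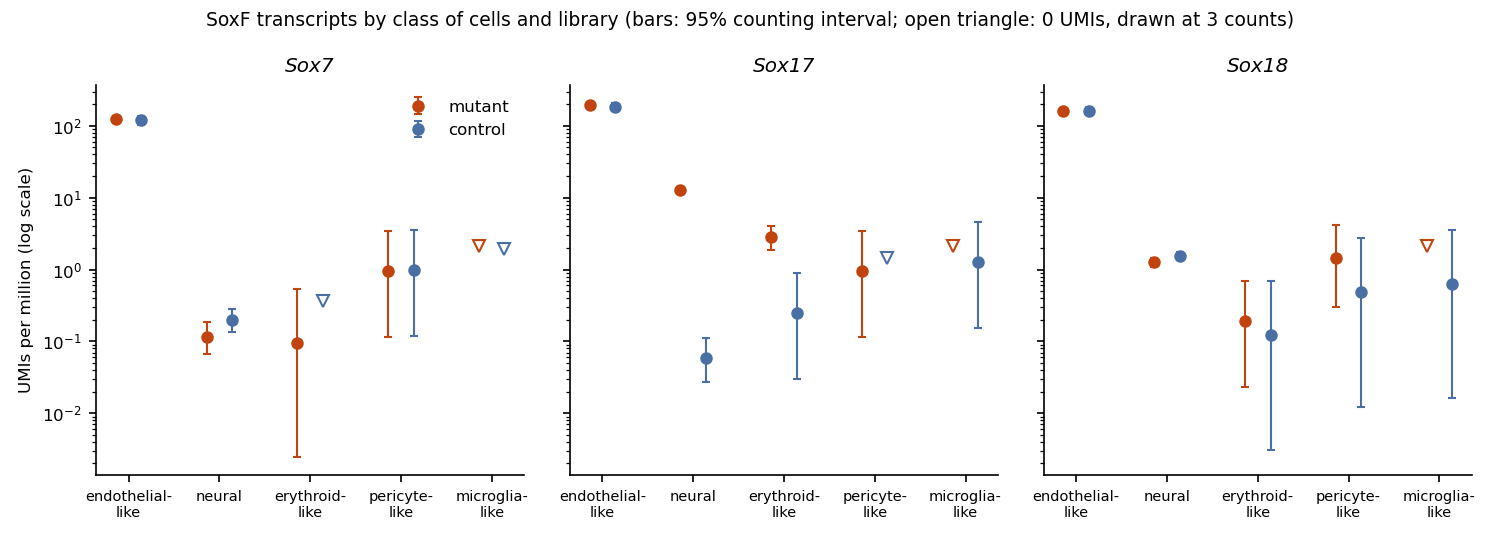
Level of each SoxF gene (CPM, log axis) in 5 classes of cells, with mutant left of control; points are sums over all cells of the class, bars are 95% counting intervals, and open triangles mark 0 UMIs drawn at 3 counts. In endothelial-like cells the points of both libraries coincide for each gene, while Sox17 in neural cells stands at 12.7 CPM for the mutant and at 0.0596 CPM for the control library.

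Within the endothelium Sox17 differed more between vessel states than between genotypes. Cells were split by whether the UMIs of 12 arterial genes (among them Gja4, Efnb2 and Dll4) exceeded those of 7 venous genes (among them Slc38a5, Nr2f2, Ephb4 and Aplnr), a split made after the data were seen. Slc38a5 weighed most on the venous side, with 1088 UMIs in mutant and 856 in control endothelial-like cells. Aplnr came next, with 351 UMIs in mutant and 269 in control cells. In the mutant library Sox17 stood at 365 CPM (312 to 425) in 49 cells with more arterial UMIs, against 146 CPM (129 to 166) in the other 159 cells. In the control library it stood at 407 CPM (343 to 479) in 44 such cells, against 121 CPM (103 to 142) in the other 142. The intervals of the arterial and the remaining cells did not overlap in either library. Sox18 stood at 205 CPM (166 to 251) against 149 CPM (131 to 168) by the same split in the mutant library, intervals that met, and at 310 CPM (255 to 374) against 121 CPM (103 to 142) in the control library. Sox7 had overlapping intervals in the mutant library, at 97.2 CPM (70.9 to 130.1) against 130 CPM (113 to 148), and stood at 156 CPM (118 to 204) against 109 CPM (91.1 to 129) in the control library. The mutant cell with 54 Sox7 UMIs was among the remaining cells, since the arterial mutant cells held 45 Sox7 UMIs in all. The median depth was 8689 UMIs in arterial and 8665 UMIs in the remaining mutant cells, and 7304 UMIs in arterial and 8459 UMIs in the remaining control cells.

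In neural cells Sox17 differed far more between the libraries than Sox7 or Sox18. Neural clusters held 1848 Sox17 UMIs in 13664 mutant cells (12.7 CPM) and 9 in 13824 control cells (0.0596 CPM), a ratio of 213 (112 to 466). Of 20455 genes measured in neural cells 7 had a higher ratio, with 0 control UMIs counted as 3, and 9.23% of genes were 2-fold or more above the control level and 5.15% were 2-fold or more below it. Sox17 was chosen with this difference known, so its rank is only a description. Neural cells held 80.2% of the mutant library's Sox17 UMIs and 2.91% of the control library's, while endothelial-like cells held 18.1% of those of the mutant and 95.1% of those of the control library. The mutant library thus held more Sox17 in neural cells than in its vessels, although only 4.03% of mutant neural cells (551 cells, 3.71% to 4.38%) had a Sox17 UMI, against 0.0651% (9 cells) of control neural cells. With every cell thinned to 3000 UMIs, which left out shallower cells, the shares were 2.30% (275 of 11982) in mutant and 0.0338% (4 of 11840) in control neural cells.

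Sox17 lay in 3 mutant clusters above all. The first, cluster 0, was led by Hand2, a basic helix-loop-helix factor best known from heart, limb and sympathetic neurons, together with Sox17 itself, Fstl4, Egfem1 and Calb1, and its top genes also held Neurog2, a proneural factor, and Olig3, a factor of dorsal hindbrain progenitors. It comprised 2729 mutant and 14 control cells, with 1356 Sox17 UMIs (48.3 CPM, 45.7 to 50.9) in 354 mutant cells and 0 UMIs in the control cells. The second, cluster 6, was led by Olig3, Calb2 (calretinin), Fbxo2 and Tesc. It comprised 578 mutant and 99 control cells, with 179 Sox17 UMIs (49.0 CPM, 42.1 to 56.7) in 52 mutant cells and 0 in the control cells, which allows a share of up to 3.03% of these. The third, cluster 3, was led by mitotic and histone genes such as Ccnb2 and Kif20a. It comprised 513 mutant and 43 control cells, with 109 Sox17 UMIs (12.9 CPM, 10.6 to 15.6) in 37 mutant cells and 0 in control cells. None of the 3 clusters carried the marker set of a named cell type.

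The other mutant neural clusters had lower Sox17 levels. Thinned to 3000 UMIs, 8.34% (7.25% to 9.52%) of cluster 0, 6.98% (4.79% to 9.76%) of cluster 6 and 2.95% (1.66% to 4.82%) of cluster 3 had a Sox17 UMI. In erythroid-like cells, which should lack the gene, the thinned share was 0.390% (0.0473% to 1.40%) in the mutant and 0.261% in the control library, at median depths of 20111 UMIs in mutant and 20870.0 UMIs in control cells. Among microglia-like cells the thinned share was 0% (0 of 103 cells) in the mutant and 0.775% (0.0196% to 4.24%) in the control library. Clusters 2 (led by Lgr6, Pycr1 and Notum), 4 (led by Il1rapl2, Mylk and Runx3) and 1 (led by Hpse2, Gdf10 and Dapk2) had 31, 23 and 44 mutant Sox17 UMIs in that order, with thinned shares of 0.588% in cluster 2, 0.943% in cluster 4 and 0.171% in cluster 1, whose intervals overlapped that of mutant erythroid-like cells. Unthinned levels were 3.49 CPM (2.37 to 4.95) in cluster 2, 4.02 CPM (2.55 to 6.04) in cluster 4 and 2.18 CPM (1.58 to 2.92) in cluster 1, with up to 9 UMIs in a cell of cluster 4 and 11 in a cell of cluster 1. Clusters 9 (led by Ndst4, Tfap2d and Cntn4) and 25 (led by Cnmd, Shisa3 and Mamdc2) also had a mutant share at least 5 times the control share. Cluster 9 had 19 mutant Sox17 UMIs (1.59 CPM, 0.960 to 2.49) and a thinned share of 0.441%. Cluster 25 had 4 (1.24 CPM, 0.339 to 3.19) and a thinned share of 0.340%. In the other 16 neural clusters the mutant share of cells was under 5 times the control share. Some were mostly control cells, such as cluster 31 with 29 mutant and 916 control cells. These 16 clusters held 83 Sox17 UMIs (1.49 CPM) in mutant cells and 9 (0.0605 CPM) in control cells. Of the mutant cells 4 had 5 or more UMIs, and these held 28.9% of the UMIs. Mutant erythroid-like cells stood at 2.80 CPM (29 UMIs in 15 of 514 cells). Their unthinned share was 2.92%, against 2.09% of mutant cells in cluster 2, 1.89% in cluster 4 and 0.963% in cluster 1. The highest of the 16 clusters, the ependymal-like cluster 28, stood at 5.33 CPM (2.56 to 9.81; 10 UMIs in 3 of 171 mutant cells). The same mutant erythroid-like cells held 1039 UMIs of Wif1, a secreted Wnt inhibitor abundant in mutant neural cells, against 2 in control erythroid-like cells, and the part of such free RNA in the lowest Sox17 levels was not tested. Oligodendrocyte-precursor-like cells, a lineage in which Sox17 has been described, had 0 Sox17 UMIs in 137 mutant and 368 control cells.

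**Figure D2:**
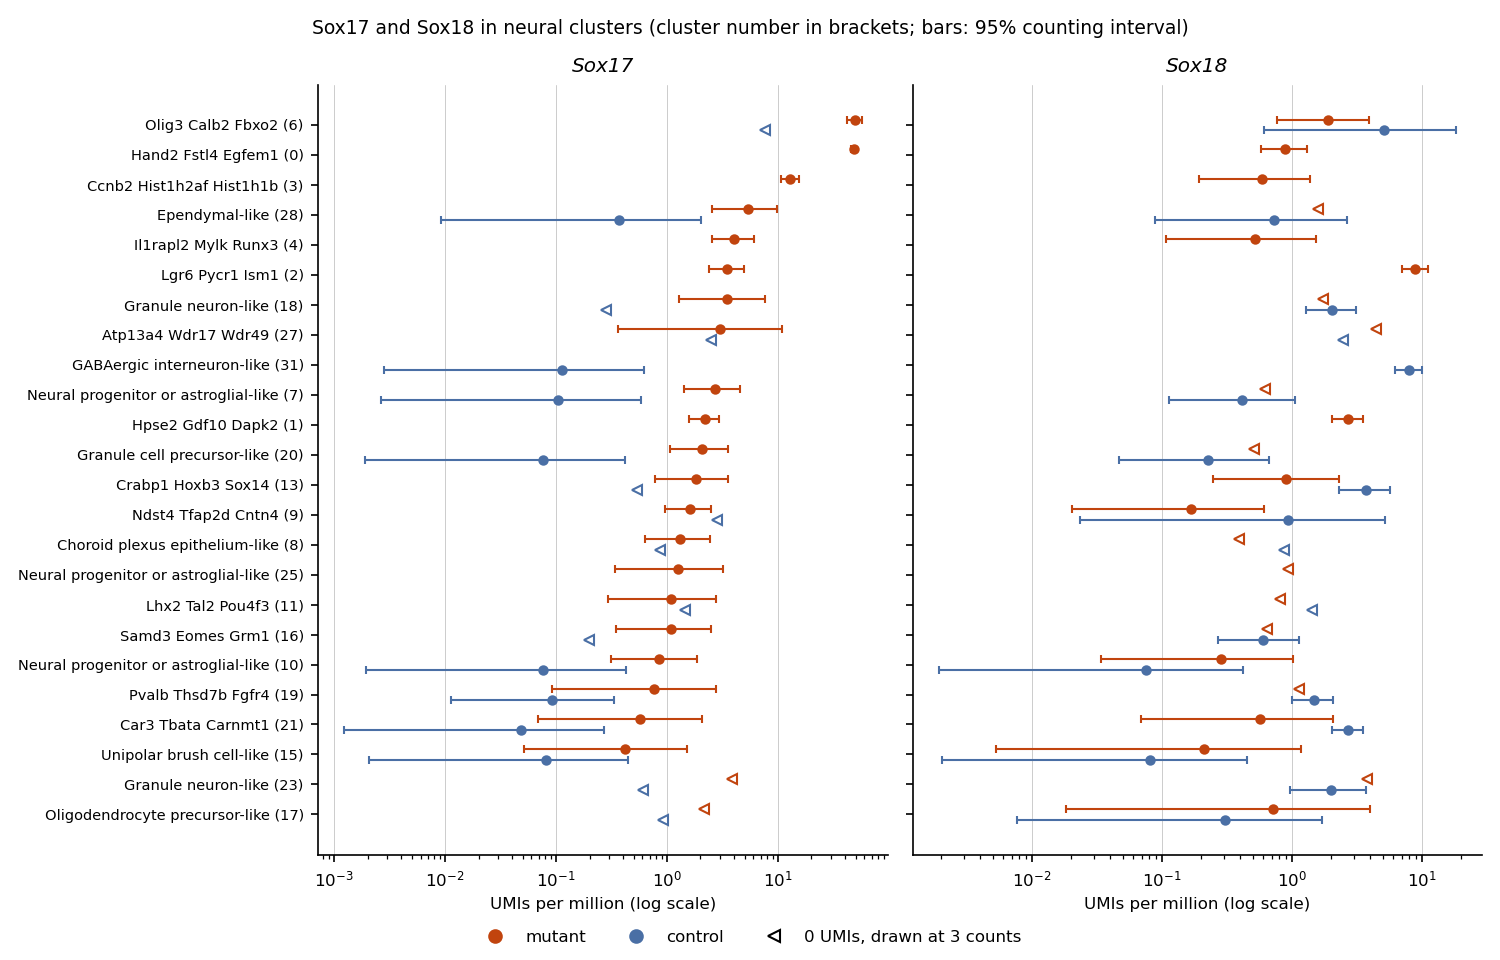
Sox17 and Sox18 levels (CPM, log axis) in the 24 neural clusters, ordered by mutant Sox17 and drawn where a library had at least 50 cells; mutant points stand above control points, bars are 95% counting intervals and open triangles mark 0 UMIs drawn at 3 counts. Sox17 stands apart in clusters 6, 0 and 3 of the mutant library, whereas Sox18 is highest in cluster 2 of the mutant library and in GABAergic interneuron-like cells of the control library.

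At finer clustering (resolution 2) the gene was concentrated further. A cluster of 705 mutant and 41 control cells led by Sox17, Tesc, Pycr1 and Olig3 had 71.6 CPM with a Sox17 UMI in 13.8% of its mutant cells. A second of 798 mutant cells and 0 control cells, led by Neurog2, Sox17, Hand2 and Egfem1, had 67.9 CPM and 17.5%. Another of 1536 mutant and 3 control cells, with Hand2 and Fstl4 among its top genes, had 40.01 CPM and 10.8%. Not all mutant cells of cluster 0 fell in these finer clusters. A finer cluster of 372 mutant and 141 control cells, led by Snhg11, drew 45.7% of its mutant cells from cluster 0. Its Sox17 level was low, at 2.91 CPM with a Sox17 UMI in 1.61% of its mutant cells. Sox17 was not used to make these clusters.

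Positive neural cells carried as many Sox17 UMIs as positive vessel cells. Mutant Sox17-positive neural cells had a mean of 3.35 UMIs (median 2, highest 24) against 1 (highest 1) in the 9 control neural cells. Endothelial-like positive cells had means of 3.30 in the mutant and 2.67 in the control library, with highest values of 15 in the mutant and 17 in the control library. Of the 551 mutant neural cells, 229 had 1 UMI, 95 had 2, 99 had 3 to 4, 86 had 5 to 9 and 42 had 10 or more. Cells with 5 or more UMIs, 128 in number, held 59.3% of the neural Sox17 UMIs. Counts were therefore not spread thinly over all cells of these clusters, where the variance-to-mean ratio of Sox17 UMIs was 7.10 in cluster 0 (1 for evenly spread counts).

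**Figure D3:**
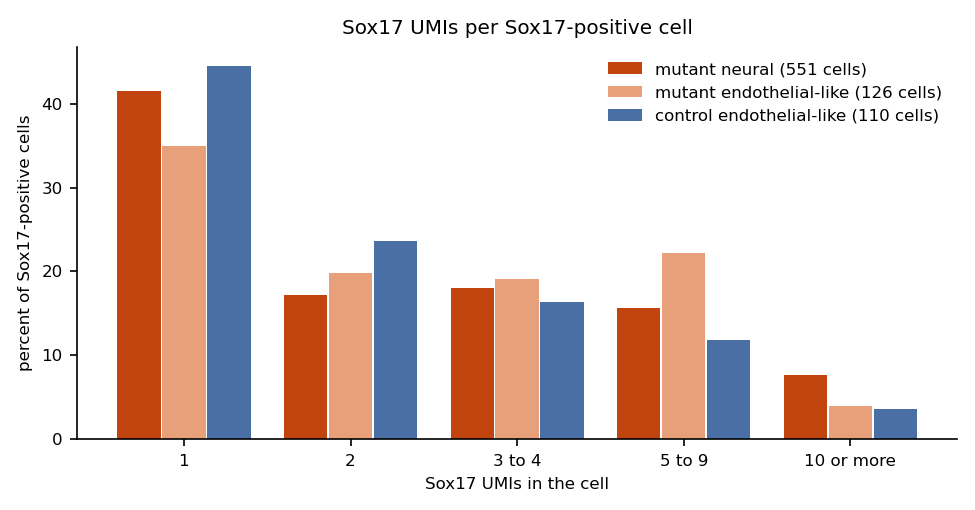
Percent of Sox17-positive cells (vertical axis) by the number of Sox17 UMIs in the cell, for mutant neural, mutant endothelial-like and control endothelial-like cells. Of the 551 mutant neural cells 42 have 10 or more UMIs, as do 5 of 126 mutant and 4 of 110 control endothelial-like cells.

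Sox17 in mutant neural cells came without its family. Of 551 positive cells, 1 also had a Sox7 UMI (0.181%, up to 1.01%) and 4 a Sox18 UMI (0.726%, 0.198% to 1.85%), and 546 (99.1%) had neither. In Sox17-negative mutant neural cells the shares were 0.114% for Sox7 and 0.785% for Sox18, values inside the intervals of the positive cells. Vessel cells differed, as all 3 genes were common in them. Of 126 Sox17-positive mutant endothelial-like cells 71 (56.3%) had Sox7, 94 (74.6%) had Sox18 and 57 had all 3 genes, and of 110 control cells 63 (57.3%) had Sox7, 69 (62.7%) had Sox18 and 43 had all 3. After thinning to 3000 UMIs, 2 of 275 Sox17-positive mutant neural cells (0.727%, 0.0882% to 2.60%) had either partner. That compared with 35 of 73 in mutant (47.9%) and 36 of 66 in control (54.5%) endothelial-like cells. At this depth 17.8% of Sox17-positive and 25.2% of Sox17-negative mutant endothelial-like cells had Sox7, and 37.0% and 36.0% had Sox18. In control endothelial-like cells these shares were 27.3% and 32.6% for Sox7, and 37.9% and 33.7% for Sox18. After this thinning the negative shares lay inside the intervals of the positive cells, as they did in neural cells. Without thinning, those of endothelial-like cells lay below the positive intervals. In mutant cells they were 42.7% for Sox7 (positive interval 47.2% to 65.2%) and 39.0% for Sox18 (66.1% to 81.9%). In control cells they were 43.4% for Sox7 (47.5% to 66.7%) and 47.4% for Sox18 (53.0% to 71.8%). The part of depth in this was not tested.

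Sums of UMIs gave the same separation. For every 100 Sox17 UMIs there were 63.5 Sox7 UMIs in mutant and 64.6 in control endothelial-like cells, but 0.920 in mutant neural cells. For Sox18 these values were 83.2 in mutant and 88.4 in control endothelial-like cells, and 10.1 in mutant neural cells. For every 100 UMIs of the endothelial gene Cldn5 there were 8.59 Sox17 UMIs in mutant and 7.63 in control endothelial-like cells, against 1635 in mutant neural cells and 9040.0 in mutant cells of cluster 0. Mutant erythroid-like cells had 29 Sox17 UMIs and 1 Cldn5 UMI. The part of RNA from vessel cells in the neural Sox17 counts was not tested. Any of 10 endothelial markers was seen in 36 of the 551 Sox17-positive neural cells (6.53%). With all neural cells carrying such a UMI left out, 2.47% of thinned mutant neural cells still had Sox17.

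Sox7 was rare in neural cells of both libraries, with 17 UMIs (0.116 CPM) in mutant cells and 30 (0.199 CPM) in control cells. The ratio of 0.587 had an interval of 0.304 to 1.10, and thinned shares were 0.0250% in mutant and 0.0760% in control neural cells, against 0.195% in mutant and 0% in control erythroid-like cells. The largest number in 1 neural cluster was 7 UMIs in 954 control cells of cluster 7 (0.727 CPM, 0.292 to 1.497).

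Sox18 had a neural pattern of its own that was not that of Sox17. Neural totals were close, with 186 UMIs (1.27 CPM) in mutant cells and 237 (1.57 CPM) in control cells, a ratio of 0.813 (0.667 to 0.989), but they came from different cells. In the mutant library 79 UMIs lay in cluster 2 (8.89 CPM, 7.03 to 11.1, in 33 of 909 cells) and 55 in cluster 1 (2.72 CPM, 2.05 to 3.55, in 29 of 2076 cells). Cluster 2 was led by Wnt-linked genes such as Lgr6 and Notum and had 0 control cells, and cluster 1 had 7. In the control library the largest number, 71 UMIs (7.96 CPM, 6.22 to 10.0, in 56 of 916 cells), lay in GABAergic interneuron-like cells marked by Pax2, of which the mutant library had 29, with 0 Sox18 UMIs. Thinned, 2% (1.17% to 3.18%) of mutant cluster 2 and 2.33% (1.39% to 3.66%) of control interneuron-like cells had Sox18, against 0 of 513 mutant and 0 of 383 control erythroid-like cells. Pericyte-like cells had thinned shares of 0.806% (0.0978% to 2.88%) in the mutant and 0% in the control library.

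A further 56 control Sox18 UMIs lay in cluster 21 (led by Car3, Tbata and Carnmt1; 2.72 CPM in 1125 cells), where 178 mutant cells had 2 UMIs (0.571 CPM). Cluster 19 (led by Pvalb, Thsd7b and Fgfr4) had 32 UMIs in 2032 control cells and 0 in 240 mutant cells, and cluster 13 (led by Crabp1, Hoxb3 and Sox14) had 21 in 557 control cells and 4 in 508 mutant cells. Over the 16 neural clusters outside the mutant-dominated ones, Sox18 had 10 UMIs (0.179 CPM) in mutant cells and 233 (1.57 CPM) in control cells, a ratio of 0.114 (0.0541 to 0.214). Of those 233 control UMIs, 71 came from the interneuron-like cells that were rare in the mutant library, and the part of the clusters' make-up in the ratio was not tested.

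The Sox17-positive cells were next compared with Sox17-negative cells of the same clusters, within the mutant library, to see what else they carried. Clusters with at least 20 positive cells of 3000 UMIs or more were used, namely clusters 0, 3 and 6, with 429 positive and 2886 negative cells. All were thinned to 3000 UMIs, and the negative cells were weighted to the positive cells' clusters. Median depth before thinning was 11041 UMIs in positive and 10637 UMIs in negative cells. Of 7116 genes at 20 CPM or more, 68 (0.956%) were at least 2-fold higher in positive cells and 201 (2.82%) at least 2-fold lower, with a median log2 ratio of 0.00 over all of them. Cells came from 1 library, so these are differences between cells of pooled embryos and carry no test.

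The most abundant of the genes higher in Sox17-positive cells was Cdkn1c, which encodes the cyclin-dependent kinase inhibitor p57. It stood at 2235 CPM in positive and 283 CPM in negative cells (log2 ratio 2.98), with 2396 CPM in positive against 301 CPM in negative cells in cluster 0, 450 CPM in positive against 205 CPM in negative cells in cluster 3 and 2458 CPM in positive against 225 CPM in negative cells in cluster 6. Fgf8, the secreted signal of the isthmic organiser at the front of the cerebellar territory, stood at 39.6 CPM in positive and 4.17 CPM in negative cells (log2 ratio 2.97). Egfem1, named for its EGF-like and EMI domains, stood at 1493 CPM in positive and 411 CPM in negative cells. Both were higher in positive cells of each of the 3 clusters.

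Further genes among the 10 with the highest ratios were transcriptional regulators and neuronal genes. Sp9, a zinc-finger factor, stood at 88.6 CPM in positive and 19.6 CPM in negative cells, and Msx3, a homeobox gene of the dorsal neural tube, at 52.8 CPM in positive and 12.1 CPM in negative cells. Vgll3, a cofactor of TEAD factors, stood at 23.3 CPM in positive and 1.86 CPM in negative cells, and Zfp804a, a zinc-finger gene, at 197 CPM in positive and 40.7 CPM in negative cells. Rasgrf1, an exchange factor for Ras, stood at 35.7 CPM in positive and 3.94 CPM in negative cells, the neuropeptide gene Cartpt at 168 CPM in positive and 39.0 CPM in negative cells, and the membrane lectin gene Chodl at 21.0 CPM in positive and 1.31 CPM in negative cells. Of these 10 genes 8 were higher in positive cells of each cluster. The genes were picked over these same cells, with 79.5% of the weight on cluster 0, so that count is only a description. In the positive cells of cluster 3, Chodl, Vgll3 and Zfp804a each stood at 9.01 CPM, close to the floor. Msx3 and Cartpt had 0 UMIs in the 37 positive cells of cluster 3, where negative cells stood at 38.9 CPM for Msx3 and 1.42 CPM for Cartpt.

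Genes lower in Sox17-positive cells included markers of neighbouring mutant clusters and neuronal genes. Tfap2d, an AP-2 factor known from the midbrain and a top gene of cluster 9, stood at 3.11 CPM in positive and 24.9 CPM in negative cells (log2 ratio -2.66). It rested on 4 UMIs in positive cells, and with called doublets kept its log2 ratio was -0.93. Hpse2, the leading gene of cluster 1, stood at 4.66 CPM in positive and 24.3 CPM in negative cells. The ion channel gene Asic2 stood at 46.6 CPM in positive against 287 CPM in negative cells. Ptprt, a receptor phosphatase, stood at 37.3 CPM in positive and 156 CPM in negative cells, and Lrfn5, a synaptic adhesion gene, at 9.32 CPM in positive and 39.1 CPM in negative cells. Ltbp1, a TGF-beta binding protein, stood at 10.9 CPM in positive and 52.9 CPM in negative cells, and the membrane protein gene Tmem100 at 5.44 CPM in positive and 25.2 CPM in negative cells. Lhfp stood at 10.9 CPM in positive and 59.8 CPM in negative cells and Mcub, a subunit of the mitochondrial calcium uniporter, at 4.66 CPM in positive and 26.5 CPM in negative cells. Of these 9 genes 6 were lower in positive cells of each of the 3 clusters, a count made on the same cells that picked them. Counts in positive cells were low beyond Tfap2d, with 6 UMIs each for Hpse2 and Mcub and 7 for Tmem100. Lrfn5 had 12 UMIs there, and Lhfp and Ltbp1 had 14 each.

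**Figure D4:**
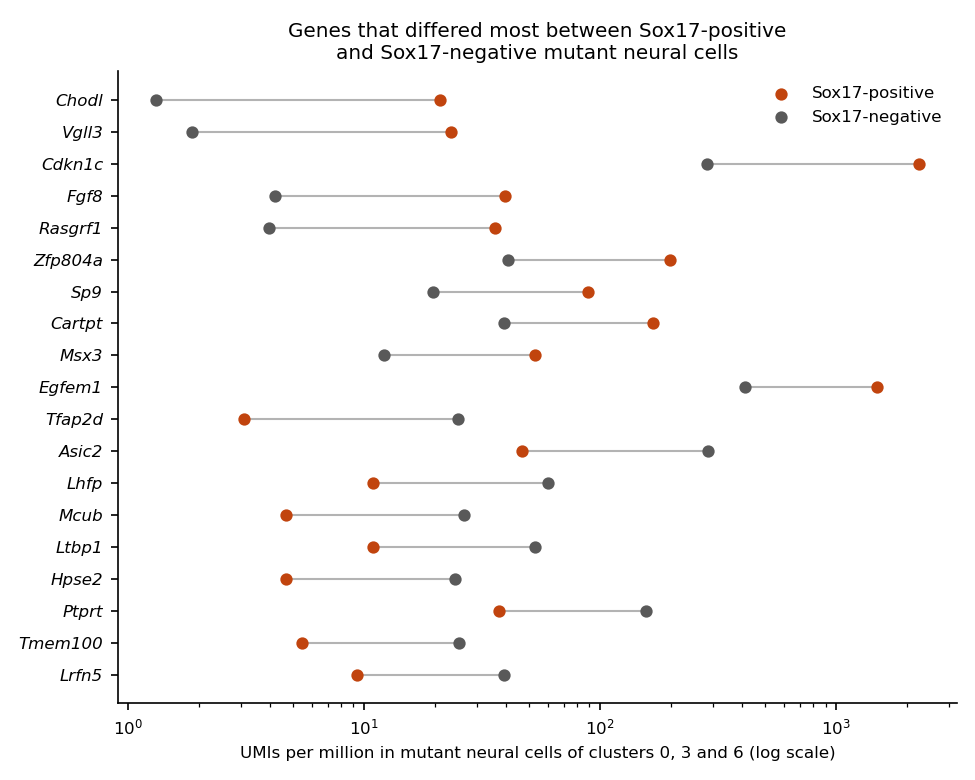
Level (CPM, log axis) of the 10 genes with the highest ratio and 9 of those with the lowest ratio between Sox17-positive (orange) and Sox17-negative (grey) mutant neural cells, thinned to 3000 UMIs and weighted over clusters 0, 3 and 6. Cdkn1c stands at 2235 CPM in positive and 283 CPM in negative cells, and Tfap2d at 3.11 CPM in positive and 24.9 CPM in negative cells.

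Genes linked to SoxF function in other tissues were mostly near 0 in the Sox17-positive neural cells. Of 20 endothelial identity genes 0 reached 20 CPM in either set, 8 had 0 UMIs in positive cells, and the summed level was 25.6 CPM in positive and 32.6 CPM in negative cells. Cdh5, Cldn5, Flt1 and Erg were among those at 0. Of 12 endoderm genes 0 reached 20 CPM, with 27.97 CPM in positive and 23.2 CPM in negative cells in sum, and Foxa1, Gata4 and Gata6 had 0 UMIs in positive cells. Of 12 vascular genes linked to SoxF factors, 3 were measurable: Vcam1, an adhesion gene, at 55.2 CPM in positive and 71.4 CPM in negative cells, Prox1, a homeobox gene of lymphatic vessels and of neurons, at 69.2 CPM in positive and 61.6 CPM in negative cells, and Nr2f2, a nuclear receptor of veins and neurons, at 117 CPM in positive and 236 CPM in negative cells. Nr2f2 was the 1 gene of that list past 2-fold (log2 ratio -1.005), where 2.82% of all 7116 genes were at least 2-fold lower. It was also the 1 gene past 2-fold among the 3 measurable of 7 venous genes, which held Flrt2 at 40.4 CPM in positive and 73.3 CPM in negative cells and Nrp2 at 105 CPM in positive and 166 CPM in negative cells. Of 12 arterial genes only Efnb2, an ephrin, was measurable, at 42.7 CPM in positive and 30.2 CPM in negative cells. The oligodendrocyte list had 1 measurable gene of 10, the myelin gene Mbp, at 13.99 CPM in positive and 23.1 CPM in negative cells.

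Wnt target genes were present in both Sox17-positive and Sox17-negative cells, and most were lower in positive cells by less than 2-fold. Of 10 targets of beta-catenin, 9 were measurable, 0 were at least 2-fold higher and 1 was at least 2-fold lower. Over all 7116 genes at 20 CPM or more, 0.956% were higher and 2.82% lower by 2-fold. The targets had a median log2 ratio of -0.53, against 0.00 over all those genes. Their sum was 2304 CPM in positive and 2854 CPM in negative cells. The Wnt deacylase gene Notum stood at 20.2 CPM in positive and 69.8 CPM in negative cells, Wif1 at 399 CPM in positive and 618 CPM in negative cells, Apcdd1, a membrane inhibitor of Wnt signalling, at 80.0 CPM in positive and 139 CPM in negative cells, and Lef1, the nuclear partner of beta-catenin, at 222 CPM in positive and 322 CPM in negative cells. Among the feedback inhibitors, Nkd1 stood at 964 CPM in positive and 926 CPM in negative cells, and Axin2 at 178 CPM in positive and 183 CPM in negative cells. At least 2 UMIs of the 10 genes were found in 86.9% of positive and 88.7% of negative cells.

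Across all mutant neural cells the share with Sox17 was highest in the middle bins of Wnt target UMIs. Of thinned mutant neural cells with 0 UMIs of the 10 targets, 0.896% had Sox17. The share was 1.53% with 1 UMI, 1.74% with 2 to 3, 4.12% (3.30% to 5.08%) with 4 to 7, 3.74% (3.04% to 4.55%) with 8 to 15 and 1.19% (0.617% to 2.07%) with 16 or more. Without clusters 0, 3 and 6 the shares were 0.270%, 0.365%, 0.215%, 0.448%, 0.763% and 0.163% from the lowest to the highest bin, with overlapping intervals. Within cluster 0 the order was different, at 12.6%, 14.9%, 8.49%, 9.65%, 7.62% and 3.01% from the lowest to the highest bin, with the highest bin's interval (1.39% to 5.64%) below those of the 4 to 7 and 8 to 15 bins. Across 23 mutant neural clusters the log-scale Sox17 level and summed Wnt target level had a Pearson r of 0.60 and a Spearman rho of 0.44. The same values were 0.75 and 0.60 for Sox18, and -0.02 and 0.15 for Sox7. These clusters share 1 library, and the values describe it.

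**Figure D5:**
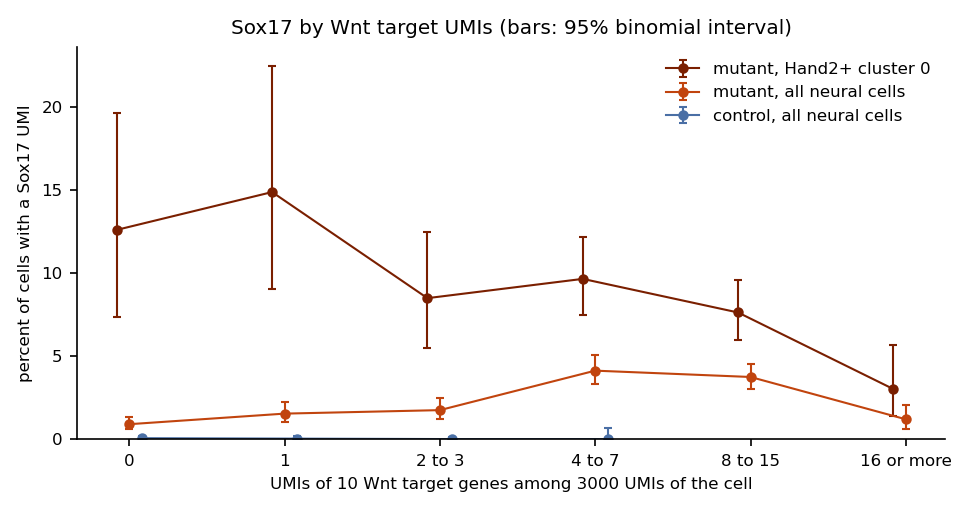
Percent of cells with a Sox17 UMI (vertical axis, bars are 95% binomial intervals) by the summed UMIs of 10 Wnt target genes in the cell, after thinning to 3000 UMIs, for mutant cluster 0, all mutant neural cells and all control neural cells; bins of under 50 cells are not drawn. In all mutant neural cells the share is highest at 4 to 7 UMIs (4.12%), and in cluster 0 it is lowest at 16 or more (3.01%).

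Cycling cells, with an Mki67 or Top2a UMI, made up 12.4% (9.39% to 15.8%) of Sox17-positive and 20.3% (18.9% to 21.9%) of Sox17-negative cells. These shares cover the 3 clusters together and were not weighted by cluster. Within cluster 0 the shares were 5.28% of positive and 7.72% of negative cells, within cluster 3 they were 83.8% of positive and 87.7% of negative cells, and within cluster 6 they were 7.84% of positive and 4.58% of negative cells, with overlapping intervals in each. The mitotic cluster 3 gave 37 of the 429 positive and 471 of the 2886 negative cells, and the part of this make-up in the overall difference was not tested. Xist, transcribed in female cells, was seen in 36.4% of positive and 37.6% of negative cells, and Y-linked genes in 88.8% of positive and 87.9% of negative cells, with overlapping intervals.

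Other SOX genes were compared in the same way. In neural cells 4 of 15 measurable other SOX genes were at least 2-fold higher in the mutant library and 0 were lower, where 9.23% of all neural genes were higher and 5.15% lower. Sox11, a SoxC factor of immature neurons, stood at 1359 CPM in mutant against 595 CPM in control neural cells. Sox13, a SoxD factor, stood at 21.4 CPM in mutant against 2.63 CPM in control neural cells. Sox14 stood at 3.18 CPM in mutant against 0.410 CPM in control cells, and its fellow SoxB2 gene Sox21 at 47.4 CPM in mutant against 15.5 CPM in control cells. The ratio of 213 for Sox17 exceeded all of these, the next being 8.14 for Sox13, but Sox17 was chosen with its ratio known and nothing is read from that order. Between Sox17-positive and Sox17-negative cells, 10 of 16 were measurable. Sox1, a SoxB1 factor of neural progenitors, stood at 33.4 CPM in positive and 9.68 CPM in negative cells (log2 ratio 1.69). Sox6, a SoxD factor, stood at 52.8 CPM in positive and 118 CPM in negative cells (log2 ratio -1.14), and the progenitor factor Sox2 at 97.9 CPM in positive and 97.6 CPM in negative cells.

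The neighbours of Sox17 that were measurable in neural cells did not share its difference. On the side of lower coordinates Rp1 stood at 0.651 CPM in mutant against 0.887 CPM in control neural cells, Xkr4 at 201 CPM in mutant cells and 136 CPM in control cells, and the noncoding Gm37381 had 3 UMIs in mutant and 11 UMIs in control cells. On the other side Mrpl15, a mitochondrial ribosomal protein gene, stood at 89.4 CPM in mutant cells and 97.2 CPM in control cells, and the noncoding Gm37323 had 8 UMIs in mutant and 3 UMIs in control cells. Gm37587, a transcript on the opposite strand that overlaps the start of Sox17, had 14 UMIs in mutant and 0 in control neural cells. The use of strand in counting had no entry in the sources used here, so reads of this pair may not be separable. Beside Sox7, Pinx1 stood at 25.9 CPM in mutant cells and 27.8 CPM in control cells and Xkr6 at 40.4 CPM in mutant cells and 34.0 CPM in control cells, while Rp1l1, Prss55, 4930578I06Rik and Gm15918 had under 1 CPM. Beside Sox18, Prpf6 stood at 57.2 CPM in mutant cells and 50.5 CPM in control cells, Samd10 at 15.1 CPM in mutant cells and 14.8 CPM in control cells, Rgs19 at 12.9 CPM in mutant cells and 10.9 CPM in control cells and Tcea2 at 5.55 CPM in mutant cells and 4.02 CPM in control cells, and Gm29797 and Lkaaear1 had 5 UMIs or fewer in each library.

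Genes with the most similar pattern were sought over 56 combinations of cluster and library with at least 50 cells, by Pearson's r of log2(CPM + 1) among 11548 genes. For Sox7 these were Ccl21a, Fam124b, Ackr2, Srarp and Flt4, all at r of about 0.96. For Sox18 they were Cldn5 (0.85), Tmem252, Slc35f2, Ccl21a and Srarp. For Sox17 the highest were Prnd (0.78), Foxf1, AU021092, Cdkn2b and Rasip1, lower than for its relatives. Over the 41 neural combinations alone, Sox17 was most like Hand2 (0.94), Hand2os1 (0.92), Cyp1b1 (0.81), Twist2 (0.81) and Fstl4 (0.79). Neural Sox17 was high only in mutant clusters 0, 6 and 3, and Hand2 and Fstl4 were top genes of cluster 0. These r values may therefore largely restate those clusters. Sox7 stood at 123 CPM in mutant and 119 CPM in control endothelial-like cells, against 0.121 CPM in all other mutant and 0.205 CPM in all other control cells. Its r values therefore rest mainly on the endothelial-like combinations. Genes entered if they reached 20 CPM in at least 1 combination. A gene confined to vessel cells, or to the mutant clusters high in Sox17, could thus enter through those alone. Units share depth and library, and these values are a description.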

How the data were processed

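Whole cerebella were dissociated with papain and DNase, sorted for live cells with 7-AAD, and 40000 cells of each pool of 3 samples were loaded for a 10x Genomics 3' library, per the labels' protocols. The deposited values are raw UMI counts per gene and barcode, which the authors made with Cell Ranger 7.0.1 on mm10, per the submitters' processing notes. For intron counting, strand, annotation release and cell calling the sources used here give nothing. Groups follow the genotype labels.

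Cells with at least 1000 UMIs, 500 genes and at most 10% mitochondrial UMIs were kept (16482 of 21596 mutant and 16812 of 21457 control barcodes). Scrublet at an expected rate of 16% then removed 896 mutant (5.44%) and 1019 control (6.06%) doublets. With scanpy 1.11.5, 2000 variable genes, 30 principal components and 15 neighbours gave Leiden clusters at resolution 1, without SoxF genes, listed genes and mitochondrial, haemoglobin, ribosomal or sex-linked ones. A cluster was named where at least 3 markers and 50% of a type's list reached a log2 ratio of 1 and detection in 10% of its cells. No name was given where another type had more markers in the top 10 genes, or where midbrain genes led a cluster named for cerebellar nuclei (a rule set after seeing the data). A cluster was neural if it had no non-neural name and fewer than 3 enriched markers of each non-neural type. Names went to 19 clusters and not to 13; they are rebuilt and may differ from the study's.

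Counts were summed over cells as CPM. Sums carry exact Poisson intervals, ratios exact conditional binomial and shares Clopper-Pearson intervals, all at 95%. Genes with at least 20 UMIs over both libraries entered the counts of genes at 2-fold or more. A count of 0 allows up to 3 counts. Shares were read on cells thinned to 3000 UMIs, which left out 2008 mutant and 2382 control cells. Ratios between Sox17-positive and Sox17-negative cells are log2 of CPM plus 1, with 20 CPM in either set required.

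The genes named were the SoxF genes, their 3 neighbours on each side, up to 4 members of each list, the 5 genes most like each SoxF gene, and the 10 largest ratios each way between positive and negative cells, of which 1 of the lower genes is not reported here. The rankings skipped sex-linked, haemoglobin, mitochondrial, ribosomal, Rik and Gm-numbered genes. The members and lists were chosen with earlier results of these data known. The finer clusters, ratios of UMI sums, vessel splits and Wnt bins were added after seeing the data. GENCODE M21 held 32158 of the 32285 gene identifiers. The steps from counts to ratios and intervals were tested on simulated counts. Alternatives covered the cell filter, doublets, resolution, haemoglobin, the endothelial gate, endothelial marker UMIs, thinning, single high cells and the cut for Sox17-positive cells.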

Additional observations from a re-analysis of the deposited data

How the results depend on the processing

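Of 132 recomputed values 120 stayed within the main value's counting interval, or within 1.5 times it for counts and gene ratios. The log2 ratio of Sox17 in neural cells ran from 7.17 to 8.41 over its alternatives, and none reversed a ratio whose interval lay on 1 side of 0. In the endothelial-like cluster, where the intervals span 0, Sox7 changed sign to -0.15 without its richest cells, and Sox18 to 0.02 with no cell filter, 0.04 with called doublets kept and 0.01 without its richest cells. Taking every cell with UMIs of at least 3 endothelial markers (295 mutant and 260.0 control cells) gave log2 ratios of 0.37 for Sox7, 0.41 for Sox17 and 0.33 for Sox18, with intervals above 0, against 0.04, 0.07 and -0.02 in the endothelial-like cluster. This gate added 87 mutant and 75 control cells outside that cluster, and the cause was not tested. With the cell richest in each gene left out, the whole-library log2 ratio of Sox7 was 0.12 (-0.15 to 0.40) against 0.37. Without neural cells that carried an endothelial marker UMI, neural cells held 74.5% of the mutant Sox17 UMIs. Thinned to 1500 UMIs, 1.49985% of mutant and 0.00747% of control neural cells had Sox17, and 0% of the positive cells had Sox18; without thinning 4.03% of mutant neural cells had Sox17. At resolution 2 the genes at least 2-fold lower in Sox17-positive cells numbered 128, against 201, and over all settings they ran from 128 to 299, with 65 to 88 higher. Cdkn1c kept a log2 ratio of 2.91 to 3.29 and Fgf8 one of 2.77 to 3.35, whereas Tfap2d ran from -4.72 to -0.93. The alternatives for high cells and for positive against negative cells were chosen after seeing the data. No paired analysis was possible because each genotype had 1 library. Depth limits per-cell shares: a cell without a Sox17 UMI may still hold the transcript.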

Other observations

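Endothelial-like cells in cycle had a lower Sox17 level (CPM) in both libraries, but not a smaller share of cells with the gene. In the mutant library Sox17 stood at 148 CPM (121 to 180) in 44 cells with an Mki67 or Top2a UMI, against 215 CPM (192 to 240) in the other 164 cells. In the control library it stood at 118 CPM (86.8 to 156) in 35 such cells, against 207 CPM (182 to 235) in the other 151. A Sox17 UMI was seen in 68.2% of cycling and 58.5% of other mutant cells, and in 68.6% of cycling and 57.0% of other control cells. Sox7 stood at 154 CPM (126 to 186) against 108 CPM (91.8 to 126) in the mutant library and at 81.0 CPM (55.7 to 114) against 132 CPM (112 to 155) in the control library. A single mutant cell carried 54 Sox7 UMIs, and the direction in the mutant library was not recomputed without it. Sox18 stood at 147 CPM (120 to 178) against 167 CPM (147 to 190) in the mutant library and at 98.2 CPM (70.1 to 134) against 185 CPM (162 to 212) in the control library. Median depth was 10913 UMIs in cycling and 8312.5 UMIs in other mutant cells, and 11491 UMIs in cycling and 7567 UMIs in other control cells. The split was made after the data were seen, and the overlap of cycling with venous cells was not tested.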
